A study of Rattus norvegicus with 138 samples.

Results

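The ADAMTS proteases (a disintegrin and metalloproteinase with thrombospondin motifs) described here are Adamts1, Adamts2, Adamts4, Adamts5, Adamts7, Adamts9, Adamts10, Adamts12, Adamts14 and Adamts15, 10 genes of the 16181 gene symbols used from the expression table. They were chosen by name, and all 10 had values and passed the filter on low values. RNA was measured by RNA-Seq in the tibialis anterior (TA) muscle of male Lewis rats of about 4 months of age, an inbred strain, after a volumetric muscle loss (VML) injury, in which part of the middle of the left TA muscle was removed with a biopsy punch. The right TA muscle was the contralateral sample, and muscles were taken at 3, 7, 14 and 28 days post injury (DPI). Some defects were left non-repaired and others were filled with minced muscle graft (MMG), autologous muscle cut into small pieces, and within each of these arms some rats were labelled as running. The running protocol is not given in the sources used here, and repaired and non-repaired rats carried the same punch injury.

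After libraries with fewer than 7000 symbols above 1 TPM were dropped, 116 libraries from 114 muscles of 78 rats remained in 31 groups. Controls were the left and right TA muscles of 2 rats labelled as sham at day 0, so the 4 control values rest on 2 animals. The study's own text calls its controls unoperated, while a figure legend in it names a sham group, so what the control animals underwent is unclear. Injured muscles numbered 3, 8, 4 and 4 without repair at 3, 7, 14 and 28 DPI and 7, 8, 4 and 4 with MMG, and contralateral muscles numbered 2, 4, 2 and 2 and 2, 6, 2 and 2. In running rats there were 8, 4, 4 and 2 injured muscles without repair and 6, 4, 4 and 2 with MMG, and 2 contralateral muscles of each arm at 3, 7 and 14 DPI. The control animals carry numbers of a different series from those of the operated animals, so series and injury cannot be told apart in a comparison with control, whereas contralateral muscles come from the operated series. The values are TPM, a transcript abundance that is corrected for transcript length and scaled to one total per library, so genes may be compared with each other, but the depth behind a value is unknown.

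ADAMTS proteases are secreted zinc metalloproteinases that cut proteins of the extracellular matrix. Adamts2 and Adamts14 remove the amino-terminal propeptide of fibrillar procollagens, a step that allows collagen fibrils to form. Adamts1, Adamts4, Adamts5, Adamts9 and Adamts15 cut proteoglycans such as aggrecan and versican, and Adamts4 and Adamts5 are the aggrecanases of cartilage. Adamts7 and Adamts12 cut cartilage oligomeric matrix protein (Comp), and Adamts10 binds fibrillin microfibrils. In skeletal muscle members of the family are known for the turnover of versican in the provisional matrix around myoblasts.

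RefSeq promoter sequences of build GRCr8 were matched to 8 of the 10 genes, Adamts5 and Adamts15 having no entry in that table. The 250 bases before the start site are printed for Adamts2 and Adamts14, the pair of procollagen amino-proteinases, and for Adamts1, the member with the highest control level and the smallest change against control. Capitals mark matches to TATAAA, the box bound by the basal machinery, to CCAAT, a site of nuclear factor Y, or to GGGCGG, a site of Sp1. Each was searched on both strands, so a match to the other strand reads as the reverse complement.
Adamts2, chr10:35421780-35422029, plus strand: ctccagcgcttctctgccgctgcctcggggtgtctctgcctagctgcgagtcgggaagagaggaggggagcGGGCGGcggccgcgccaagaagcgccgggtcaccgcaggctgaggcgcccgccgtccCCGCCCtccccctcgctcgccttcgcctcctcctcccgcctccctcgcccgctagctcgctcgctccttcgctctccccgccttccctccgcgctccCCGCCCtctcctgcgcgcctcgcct
Adamts14, chr20:29762683-29762932, minus strand: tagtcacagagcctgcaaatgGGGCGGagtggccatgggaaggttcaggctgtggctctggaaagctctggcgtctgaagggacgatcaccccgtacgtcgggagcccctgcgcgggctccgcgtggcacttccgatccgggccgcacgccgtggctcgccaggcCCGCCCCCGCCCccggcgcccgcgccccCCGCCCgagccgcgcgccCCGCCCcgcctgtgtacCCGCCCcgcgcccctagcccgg
Adamts1, chr11:38427385-38427634, minus strand: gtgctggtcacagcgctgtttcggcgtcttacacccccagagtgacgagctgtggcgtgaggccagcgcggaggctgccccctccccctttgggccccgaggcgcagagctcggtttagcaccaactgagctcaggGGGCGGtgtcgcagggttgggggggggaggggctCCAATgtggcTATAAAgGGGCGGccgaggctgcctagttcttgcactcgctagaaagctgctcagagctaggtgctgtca

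Adamts1 carried 1 TATAAA, 1 CCAAT and 2 GGGCGG motifs in this window, Adamts2 carried 3 GGGCGG motifs and Adamts14 carried 6. GGGCGG was present in 5 of the 8 member promoters and in 32.4% of the 27457 rat promoters of the same length. TATAAA was found in 3 of the 8, Adamts1, Adamts7 and Adamts10, and in 13.1% of all, and CCAAT in Adamts1, Adamts7 and Adamts9 and in 34.3% of all. TGANTCA was in none of the 8 and in 6.4% of all, and a kappaB consensus was in Adamts12 and in 3.5% of all. Adamts4 held none of these motifs in its window. GC content was 75.6% for Adamts2, 76.0% for Adamts14, 65.2% for Adamts1 and 51.2% for Adamts4, beside a median of 52.0% over all promoters. Adamts1 and Adamts5 are adjacent protein-coding genes in the RefSeq annotation.

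In non-repaired injured muscle, 9 of the 10 ADAMTS proteases were higher than in control at 3, 7 and 14 DPI and 8 were higher at 28 DPI, and none was lower. A gene was called when its adjusted p, from limma on log2(TPM + 1) with Benjamini-Hochberg correction over 11328 tested genes, was under 0.05 and its log2 fold change was beyond 1, and all fold changes here are on that scale. The offset of 1 TPM shrinks the change of genes at low levels, so an order of fold changes between genes is one on this scale alone. The injury moved much of the transcriptome as well: 52.6%, 48.1%, 25.5% and 21.3% of all tested genes were called at 3, 7, 14 and 28 DPI. The median log2 fold change of the 10 members was 2.69, 3.04, 2.08 and 1.38 on these days, beside 0.96, 0.91, 0.53 and 0.52 over all tested genes. Scaling the libraries so that the typical gene stayed level (median-of-ratios size factors) brought the median of all genes down to between 0.02 and 0.09 on the 4 days. In that fit 8, 9, 9 and 7 members were called higher, beside 24.5%, 21.9%, 15.8% and 11.5% of all genes. In the same rescaling the higher genes fell from 91.9% to 59.2% of the calls over all genes at 3 DPI, from 95% to 60.6% at 7 DPI, from 97.9% to 72.8% at 14 DPI and from 99% to 78.4% at 28 DPI. The TPM values by muscle are drawn in the plot of levels in control, contralateral and non-repaired injured muscle.

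**Figure D1:**
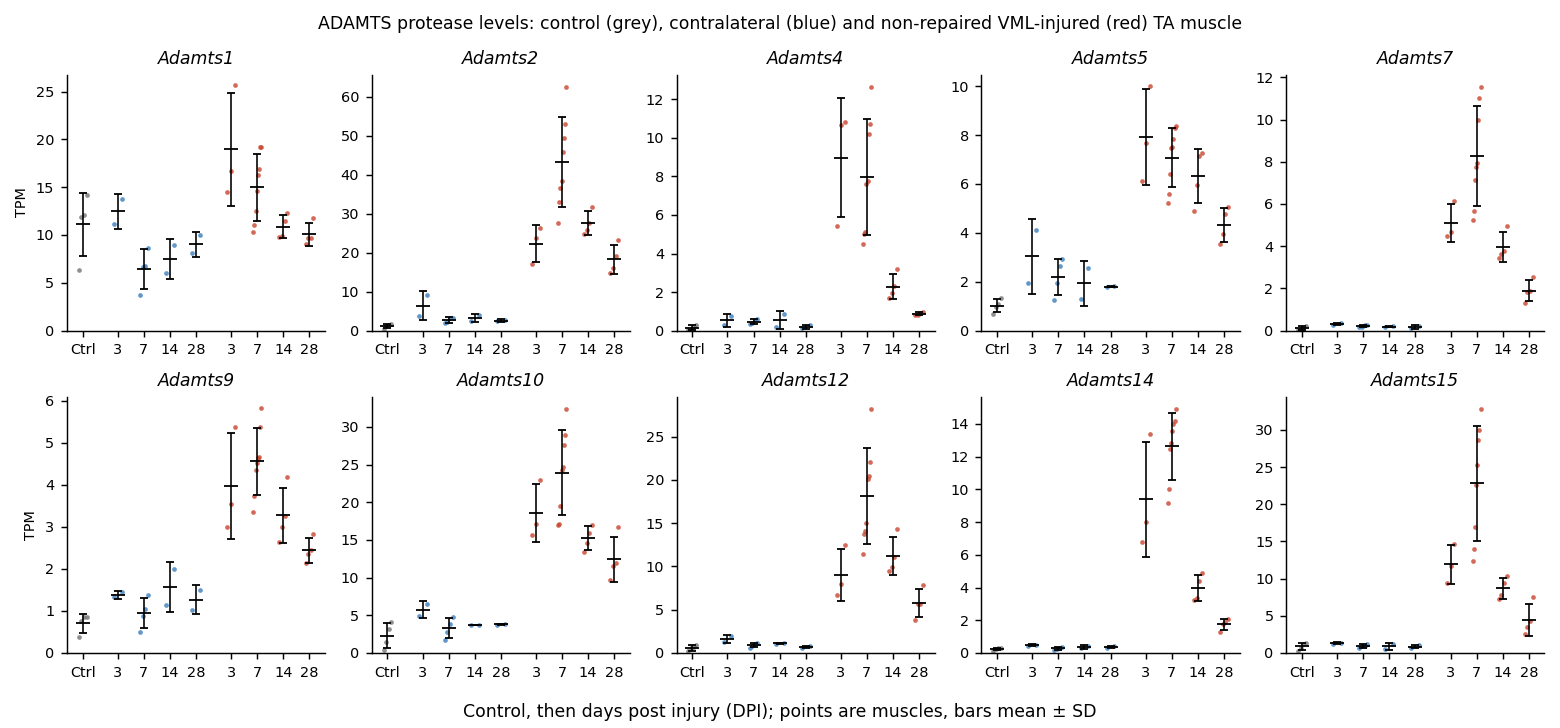
TPM (vertical axes, linear from 0, one scale per gene) of the 10 ADAMTS proteases in control, contralateral and non-repaired VML-injured TA muscle by days post injury. Each point is a muscle and the bars give the mean ± SD. For 9 of the genes every injured muscle lies above every control muscle on all days, whereas Adamts1 starts at 11.1 TPM in control and its injured and control values overlap from 7 DPI on. How many of all tested genes separate in this way was not counted.

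Of the procollagen amino-proteinases, Adamts2 was at 0.36, 1.09, 1.5 and 1.59 TPM in the 4 control muscles. Injured muscles held 16.98, 23.63 and 26.30 TPM of Adamts2 at 3 DPI, and at 7 DPI the 8 muscles ran from 27.58 over a median of 42.045 to 62.56 TPM. The levels then came down, to 24.83, 25.91, 27.68 and 31.77 TPM at 14 DPI and to 14.74, 16.03, 19.15 and 23.12 TPM at 28 DPI, and on no day did injured and control muscles overlap. The log2 fold change against control was 3.47 ± 0.26 (SE), 4.37 ± 0.21, 3.78 ± 0.25 and 3.20 ± 0.25 at 3, 7, 14 and 28 DPI, the highest of the 10 members on each day on this scale. With an offset of 0.1 TPM it stayed highest at 14 and 28 DPI, but at 3 DPI Adamts4 (5.23) and Adamts7 (4.71), with Adamts14 between them, were above Adamts2 (4.32), and Adamts7 (5.36) and Adamts14 (5.27) above its 5.25 at 7 DPI.

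Adamts14, the paralog of Adamts2, started lower, at 0.12, 0.24, 0.29 and 0.29 TPM in control. It reached 6.77, 8.0 and 13.39 TPM at 3 DPI, and 9.15 to 14.91 TPM with a median of 13.2 at 7 DPI. By 14 DPI its level was 3.97 ± 0.82 TPM (SD, n = 4) and by 28 DPI 1.76 ± 0.33 TPM, above all control muscles. The difference from control was 3.45 ± 0.16 (SE) on the log2 scale at 7 DPI and 1.16 ± 0.19 at 28 DPI, and whether the course of the pair differed was not tested. Adamts3, the third procollagen amino-proteinase, was too low to be tested, with 0.02 TPM in control and a highest value of 1.08 TPM in any muscle.

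Among the proteoglycan-cutting members, Adamts1 stood apart. It had the highest control level of the 10 genes, 6.35, 11.84, 12.04 and 14.15 TPM. Injured muscles held 14.49, 16.69 and 25.68 TPM at 3 DPI, all above the control muscles, and 10.31 to 19.24 TPM (median 15.4) at 7 DPI, with overlap. At 14 and 28 DPI the levels were 10.9 ± 1.20 and 10.1 ± 1.21 TPM (SD, n = 4), inside the control range. The log2 fold change against control was 0.73 ± 0.24 (SE, adjusted p = 0.0039) at 3 DPI and 0.42 ± 0.19 at 7 DPI. It was 0.02 ± 0.22 and -0.09 ± 0.22 on the later days, and Adamts1 was called on none of the 4. With size factors the values were -0.34, -0.59, -0.63 and -0.72, the first 3 turning negative. None reached the fold threshold, but those at 7, 14 and 28 DPI passed the adjusted p of limma (0.00079, 0.0024 and 0.00068).

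Adamts4, an aggrecanase, was scarce in control, at 0.04, 0.07, 0.19 and 0.31 TPM. The injured muscles were at 5.41, 10.69 and 10.84 TPM at 3 DPI and at 4.48 to 12.66 TPM (median 7.71) at 7 DPI, then at 1.68, 1.94, 2.31 and 3.21 TPM at 14 DPI and at 0.79, 0.82, 0.89 and 0.97 TPM at 28 DPI. All injured muscles were above all controls, yet at 28 DPI the change was 0.70 ± 0.27 (SE, adjusted p = 0.015) and did not pass the fold threshold. With a pseudocount of 0.1 in place of 1 TPM that value was 2.06 and passed.

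Adamts5, the other aggrecanase and the genomic neighbor of Adamts1, rose from 1.02 ± 0.27 TPM (SD, n = 4) in control to 7.93 ± 1.97 TPM at 3 DPI (n = 3) and stayed at 7.08 ± 1.20 TPM at 7 DPI (n = 8) and 6.33 ± 1.12 TPM at 14 DPI (n = 4). At 28 DPI it was at 3.56, 3.95, 4.76 and 5.06 TPM, and the log2 fold changes were 2.13, 1.99 and 1.85 over the first 3 days, with a 95% confidence interval of 1.03 to 1.77 at 28 DPI. Adamts9 went from 0.71 ± 0.23 TPM in control to 4.56 ± 0.80 TPM at 7 DPI (SD, n = 8) and 2.44 ± 0.30 TPM at 28 DPI. Its change at 28 DPI, 1.02 ± 0.18 (SE), lay just over the threshold and dropped to 0.92 without the control replicate 4, to 0.96 without the injured replicate 1 and to 0.74 with size factors, in each case losing the call. At 3 DPI the size factors also took the call of Adamts9, from 1.52 to 0.89.

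Adamts15, another proteoglycan-cutting member, did not overlap with control on any day. From 0.33, 0.61, 1.24 and 1.35 TPM in control it reached 9.39, 11.74 and 14.66 TPM at 3 DPI and 12.34 to 32.81 TPM with a median of 23.9 at 7 DPI. Levels at 14 DPI were 7.27 to 10.33 TPM, and at 28 DPI 2.59, 3.54, 4.28 and 7.52 TPM. The change against control was 3.63 ± 0.23 (SE) at 7 DPI and 1.51 ± 0.26 at 28 DPI.

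The pair that cuts Comp was low in control. Adamts7, the lowest of the 10 members there, was at 0.02, 0.08, 0.11 and 0.23 TPM in control and at 5.23 to 11.56 TPM, median 7.84, in the injured muscles at 7 DPI. Adamts12 went from 0.17, 0.59, 0.66 and 0.89 TPM to 11.39 to 28.19 TPM, median 17.6. Neither gene overlapped with control on any day, and their log2 fold changes at 7 DPI were 3.03 ± 0.16 (SE) and 3.57 ± 0.20. At 28 DPI Adamts7 was at 1.89 ± 0.49 TPM (SD, n = 4) and Adamts12 at 5.75 ± 1.63 TPM, with log2 fold changes of 1.37 and 2.09.

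Adamts10, the fibrillin-binding member, had control values of 0.37, 1.47, 3.18 and 4.08 TPM, a wide spread over 4 muscles. Injured muscles held 15.65, 17.13 and 23.00 TPM at 3 DPI, 17.00 to 32.38 TPM (median 24.4) at 7 DPI, 13.36 to 17.03 TPM at 14 DPI and 9.73, 11.48, 11.88 and 16.69 TPM at 28 DPI. Its log2 fold change was still 2.18 ± 0.22 (SE) at 28 DPI. The fold changes of all members against both references are shown in the plot of changes by day.

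**Figure D2:**
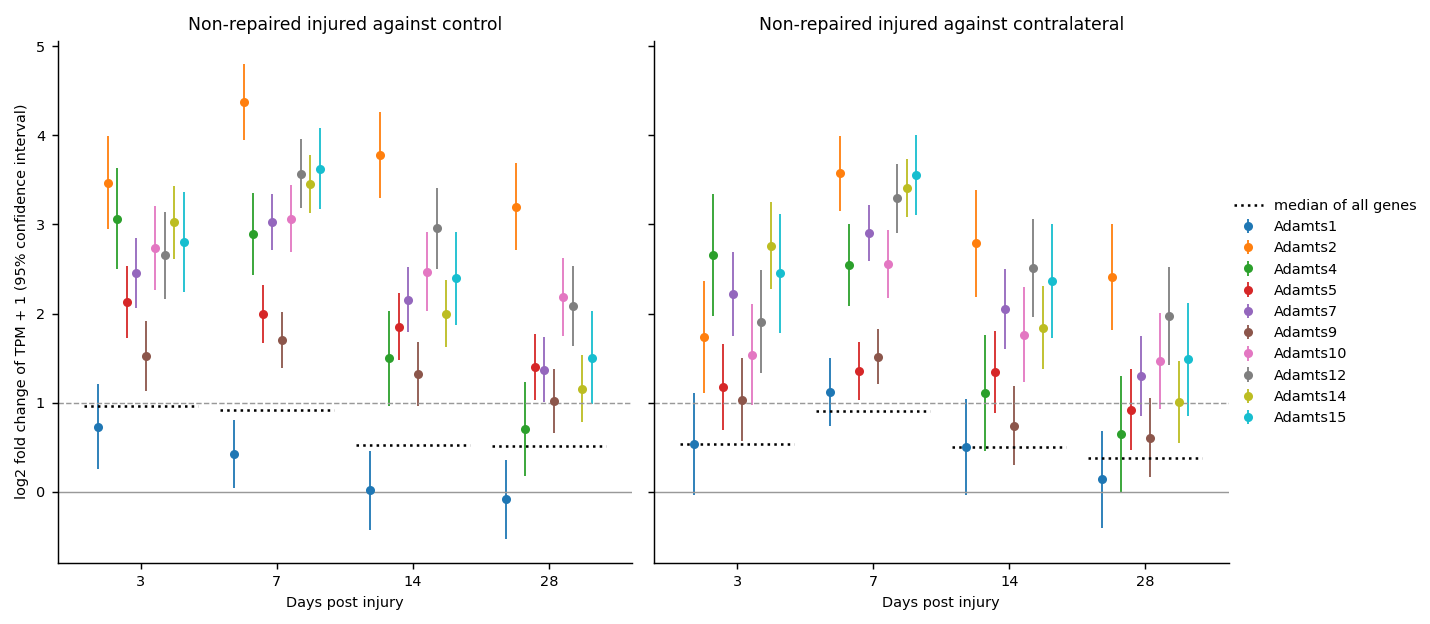
log2 fold change of TPM + 1 (vertical axis) of each ADAMTS protease in non-repaired injured muscle against control (left) and contralateral muscle (right) by days post injury, with 95% confidence intervals from limma. Dotted lines give the median of all tested genes, the dashed line the fold threshold of 1. On this scale, though not at 3 and 7 DPI with an offset of 0.1 TPM, Adamts2 is highest against control on each day. Adamts1 is lowest of the 10 on each day against both references as plotted.

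Against contralateral muscle of the operated rats, 9, 10, 8 and 6 of the 10 members were called higher at 3, 7, 14 and 28 DPI, beside 38.2%, 47.4%, 21.1% and 13.3% of all tested genes called. The injured muscles are shared with the comparison against control, so both sets of values rest on the same injured samples. Adamts2 gave 1.74 ± 0.32 (SE), 3.57 ± 0.21, 2.79 ± 0.30 and 2.41 ± 0.30, and its contralateral level was 3.74 and 9.02 TPM at 3 DPI and 2.35 and 2.80 TPM at 28 DPI. Adamts1 was called on one day, 7 DPI, at 1.12 ± 0.19 (SE). The contralateral muscles held 3.67, 6.68, 6.77 and 8.63 TPM of Adamts1 on that day, all below the injured ones, and without contralateral replicate 4 the value was 0.91 and with size factors 0.14, neither called. Size factors left 7, 7, 6 and 5 members called, beside 34.2%, 31.6%, 14.3% and 8.73% of all genes. They took the higher genes from 84.5%, 95.8%, 99.2% and 98.4% of all calls to 60.4%, 59.3%, 73.5% and 82.7%. Adamts5 and Adamts9 at 3 DPI, at 1.18 and 1.03, lost their calls without contralateral replicate 2 (0.78 and 0.99), and Adamts9 also without injured replicate 2 (0.84). At 14 DPI Adamts4, at 1.11, lost its call without contralateral replicate 2 (0.78) or injured replicate 3 (0.98). Adamts14 at 28 DPI was at 1.00 ± 0.23 and fell under the threshold without contralateral replicate 2 (0.94) and without injured replicates 1, 2 or 4 (0.98, 0.95 and 1.00 after rounding). Adamts15 at 28 DPI lost its call with all libraries kept, where its value was 1.48 and its adjusted p by limma 0.09. With a pseudocount of 0.1 TPM, 3 values under the fold threshold were called: Adamts9 at 14 DPI went from 0.74 to 1.04, Adamts4 at 28 DPI from 0.65 to 1.76 and Adamts5 at 28 DPI from 0.92 to 1.21. The share of all genes called in that fit was 34% at 14 DPI and 24.7% at 28 DPI.

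Contralateral muscle was compared with control to see whether the uninjured leg differed. Over the mean of the 4 days, 1.24% of all tested genes were called, and of the members Adamts2 alone, at 1.08 ± 0.21 (SE, adjusted p = 0.00017). That call was lost without control replicate 4 (0.87), without contralateral 3 DPI replicate 1 (0.94) and when all libraries were kept (0.96). Adamts10 at 0.78 ± 0.19 (adjusted p = 0.0025) and Adamts5 at 0.64 ± 0.16 (adjusted p = 0.0035) passed the adjusted p of limma without reaching the fold threshold. Adamts10 reached 1.05 without control replicate 2. With a pseudocount of 0.1 TPM, Adamts10 (1.19), Adamts4 (1.04) and Adamts5 (1.01) were called as well as Adamts2, while the share of all genes called rose from 1.24% to 5.92%. Adamts1 was the one member with a negative value, -0.30 ± 0.19. Fibroblast markers moved in the same comparison, with 6 of 8 called higher (5 with size factors), and their part in the difference was not tested.

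The level in injured muscle without repair differed between the days for all 10 members: the moderated F test of limma over the 4 days gave adjusted p from 4.3e-22 for Adamts14 to 0.0029 for Adamts1, and passed for 9266 of the 11328 genes. The test uses no reference muscle, and whether the difference from contralateral muscle of the same day changed with the day was not tested. From 3 to 7 DPI no member was called, beside 7.34% of all genes. An unadjusted p under 0.05 in limma was seen for 5 members, and the share of all genes at that limit was not counted. Adamts12 (0.92 ± 0.22), Adamts2 (0.90 ± 0.23), Adamts15 (0.83 ± 0.25) and Adamts7 (0.57 ± 0.18) passed the adjusted p with values below the fold threshold, and without injured 3 DPI replicate 2 Adamts12 (1.15) and Adamts2 (1.03) were called. Without injured 7 DPI replicate 8 Adamts12 alone was called, at 1.00.

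From 7 to 14 DPI, 3 members were called lower, Adamts14 (-1.45 ± 0.16, SE), Adamts4 (-1.39 ± 0.23) and Adamts15 (-1.23 ± 0.23), beside 6.82% of all genes and an all-gene median of -0.40. With size factors the higher genes went from 10.6% to 60.9% of all calls over this interval. In that fit 2 members stayed called lower, beside 4.26% of all genes called and 1.66% called lower. Adamts15 was no longer called with size factors (-0.86) or with all libraries kept (-0.89). With a pseudocount of 0.1 TPM Adamts7 was called lower too, at -1.01, beside 11.6% of all genes called lower in that fit. Adamts5 was at -0.14 ± 0.16 over this interval and was not called, and its sign turned with size factors to 0.20. From 14 to 28 DPI no member was called, beside 0.459% of all genes. An unadjusted p under 0.05 in limma was seen for 7 members, and the share of all genes at that limit was not counted. Adamts12 (-0.87 ± 0.23), Adamts14 (-0.84 ± 0.19) and Adamts7 (-0.79 ± 0.18) passed the adjusted p. With a pseudocount of 0.1 TPM, Adamts14, Adamts4 and Adamts7 were called over this interval, beside 1.01% of all genes, and without injured 28 DPI replicate 4 Adamts12 and Adamts15 were called.

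The summed level of the 10 members was 18.2 ± 6.29 TPM (SD, n = 4) in control muscle, 116 ± 28.2 TPM at 3 DPI (n = 3), 164 ± 39.9 TPM at 7 DPI (n = 8), 93.3 ± 11.1 TPM at 14 DPI (n = 4) and 62.3 ± 10.1 TPM at 28 DPI (n = 4). Its make-up is given as the mean share of each member. Adamts1 was 62.7% of the sum in control, 16.2% at 3 DPI and 9.25% at 7 DPI, and 16.6% at 28 DPI. Adamts2 went from 5.93% in control to 26.4% at 7 DPI and 29.2% at 28 DPI, and contralateral muscle stood between these at 15.1% and 12.4% on the same days. In contralateral muscle Adamts1 remained the largest part, between 34.9% and 43.5% by day, as the plot of the summed level shows.

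**Figure D3:**
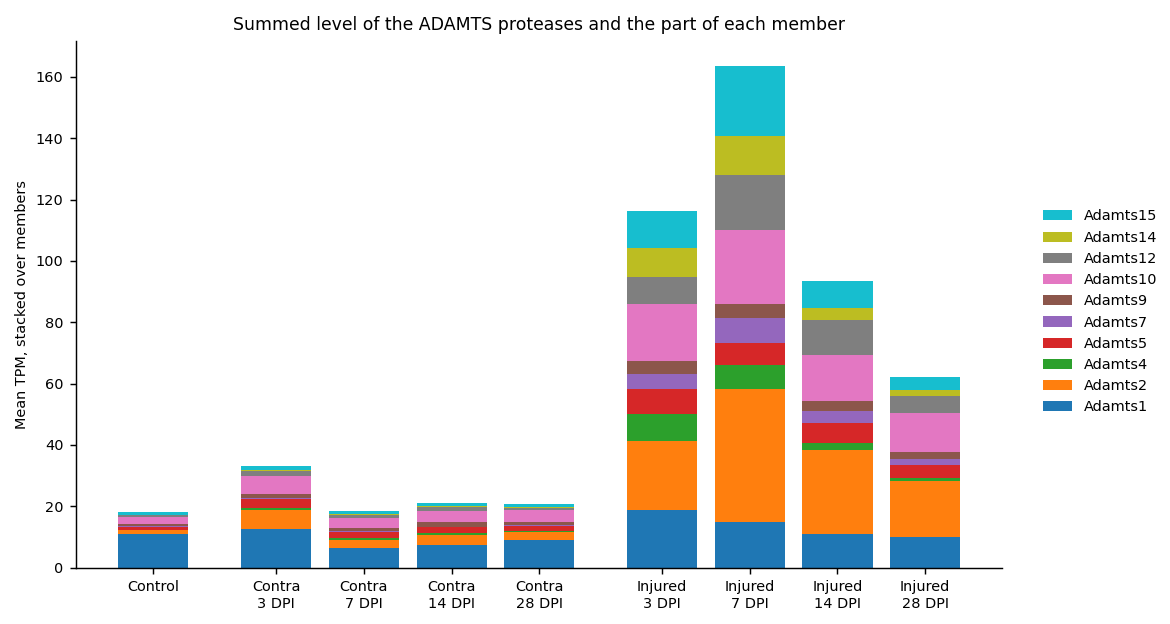
Mean TPM of the 10 ADAMTS proteases stacked for control, contralateral and non-repaired injured muscle by days post injury (bars start at 0). The sum is 18.2 TPM in control and 164 TPM at 7 DPI, and the Adamts1 segment is 11.1 TPM in control and at most 19.0 TPM, at 3 DPI.

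Repair with MMG was compared with no repair to see whether the graft changed the response. Against their contralateral muscles, MMG-repaired injured muscles had 9, 10, 8 and 7 members called higher at 3, 7, 14 and 28 DPI, beside 44%, 46.2%, 26.1% and 19.1% of all tested genes. With size factors 8, 8, 7 and 5 members were called, beside 37.5%, 34.9%, 19.5% and 13% of all genes. The higher genes went from 84.6%, 92.7%, 98% and 98.4% of all calls to 57.8%, 60.8%, 67.4% and 74.4%. Adamts2 reached 49.4 ± 8.67 TPM (SD, n = 8) at 7 DPI, with a log2 fold change of 3.59 ± 0.19 (SE), and a log2 fold change of 2.49 ± 0.30 at 28 DPI. Adamts1 was again called at 7 DPI alone, at 1.08 ± 0.17, which size factors took to 0.21 without a call. Members called at 28 DPI but not so in each alternative were Adamts5, at 1.02, which was under 1 without contralateral replicate 2 (0.96), without injured replicate 2 or 4 (both 0.99) and with size factors (0.63), and Adamts14, at 1.11, which was under 1 without injured replicate 2 (0.94) and with size factors (0.92). With a pseudocount of 0.1 TPM, Adamts9 at 14 DPI (0.96, then 1.32) and Adamts4 at 28 DPI (0.64, then 1.62) were called, beside 38.5% and 32.1% of all genes, and Adamts9 at 14 DPI also without contralateral replicate 2 (1.10) or injured replicate 3 (1.01).

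In the direct comparison of MMG with non-repaired injured muscle no member was called on any day by limma, and 0.00883%, 0.0883%, 0.0265% and 0% of all tested genes were. At an unadjusted p under 0.05 there were 2, 5, 1 and 0 members. The share of all genes at that limit was not counted, so these counts have no background beside them. The fitted differences of the 10 members lay between 0.22 and 0.50 at 3 DPI, 0.02 and 0.59 at 7 DPI, -0.15 and 0.39 at 14 DPI, and -0.01 and 0.19 at 28 DPI. The 95% confidence intervals reached from -0.54 to 0.96 over all days and members. Adamts4 at 7 DPI had the largest of these values, 0.59 ± 0.19 (SE, adjusted p = 0.038). The 8 MMG muscles ran from 8.06 over a median of 11.8 to 18.56 TPM and the 8 non-repaired ones from 4.48 over 7.71 to 12.66 TPM, with overlap. Neither the test of graft by day (adjusted p = 1 for each member) nor that of graft by injury (lowest adjusted p = 0.9996) passed for any member.

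Running was compared within the non-repaired injured muscles. None of the members was called by limma on any day, beside 0.0441%, 0%, 0.0177% and 0.0177% of all tested genes. An unadjusted p under 0.05 was seen for 3, 1, 1 and 0 members, and the share of all genes at that limit was not counted. Over all genes, 0 of the 5 calls at 3 DPI were higher, and 1 of 8 with size factors. Adamts5 at 3 DPI came closest, at 0.84 ± 0.18 (SE, adjusted p = 0.019), with a 95% confidence interval of 0.49 to 1.20. The 8 running muscles held 12.07 to 20.12 TPM of Adamts5 with a median of 13.9, above the 3 non-running ones at 6.10, 7.69 and 10.01 TPM. Without the non-running replicate 2 the value was 1.01 and was called. The running MMG muscles, at 10.36 to 15.19 TPM, were also above those 3 muscles, and the non-running MMG muscles at 8.75 to 21.39 TPM overlapped with them. The remaining differences with running lay between -0.34 and 0.59, and the lowest adjusted p of a member in the limma test of running by day was 0.366, for Adamts9. At 7 DPI the intervals of all members ended at 0.83 or lower, and at 28 DPI, with 2 running muscles, they ran from -0.80 to 0.62.

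**Figure D4:**
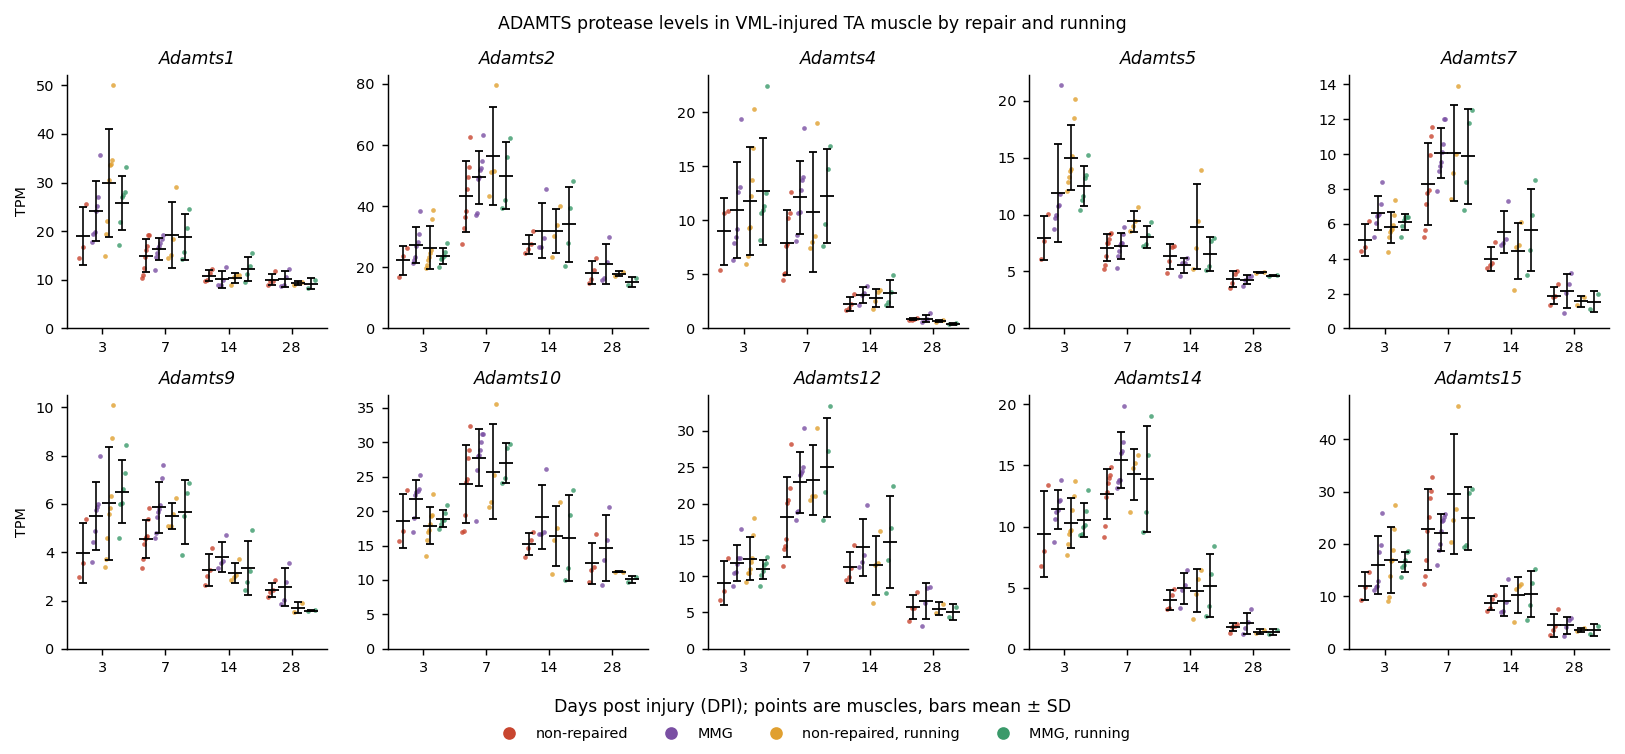
TPM (vertical axes, linear from 0) of the 10 ADAMTS proteases in VML-injured TA muscle by days post injury, for non-repaired, MMG, running non-repaired and running MMG rats. Points are muscles, bars mean ± SD. Levels are highest at 3 or 7 DPI in each arm, and the running non-repaired muscles lie above the non-running ones for Adamts5 at 3 DPI.

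**Figure D5:**
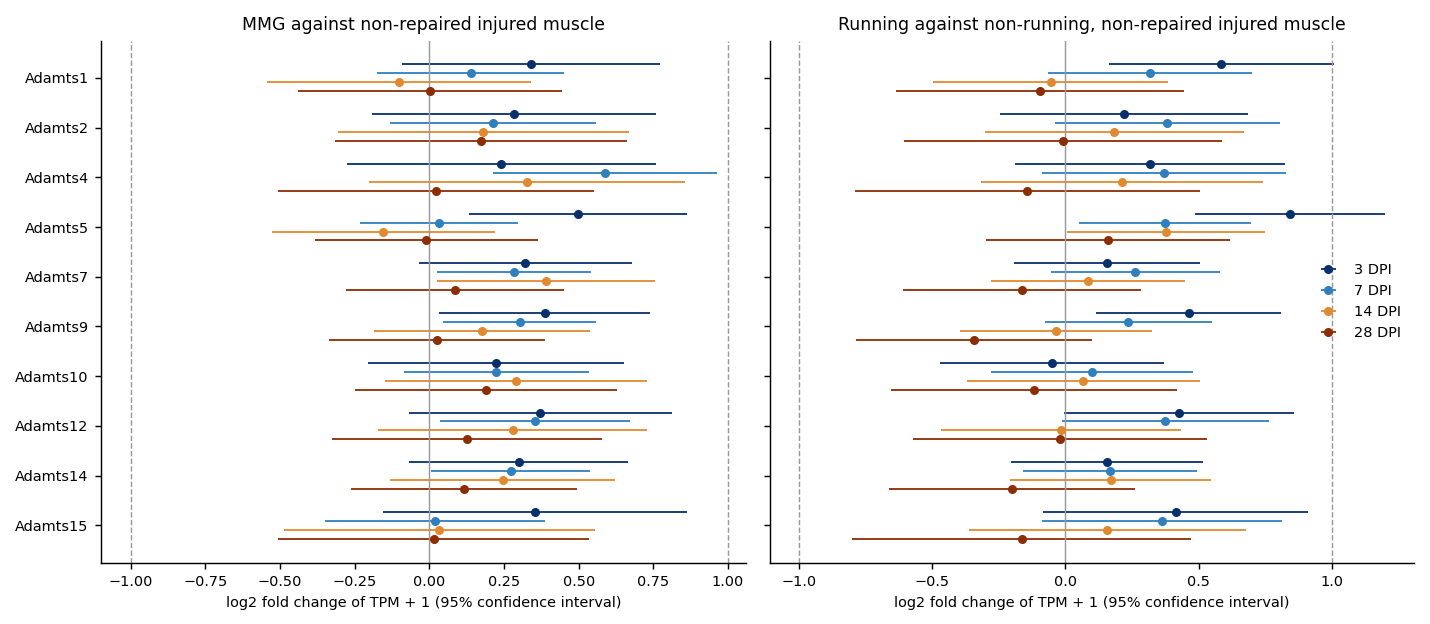
log2 fold change of TPM + 1 with 95% confidence interval (horizontal axes) for MMG against non-repaired injured muscle (left) and running against non-running non-repaired injured muscle (right), by member and day. Dashed lines mark the fold threshold of 1 in each direction, and Adamts5 with running at 3 DPI, at 0.84, is the largest value.

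Across all arms, the level of Adamts2 in the 76 injured muscles ran from 14.2 to 79.8 TPM and in the 34 contralateral muscles from 1.92 to 12.1 TPM. Adamts7 ran from 0.87 to 13.9 TPM in injured and from 0.10 to 0.52 TPM in contralateral muscles, and Adamts14 from 1.17 to 19.8 and from 0.19 to 1.15 TPM, without overlap for any of these 3 genes, and Adamts10 and Adamts15 did not overlap either. The other 5 members overlapped, and the share of all genes without overlap was not counted. Adamts1 was at 8.36 to 50.1 TPM in injured and 3.67 to 16.2 TPM in contralateral muscles. For Adamts4, Adamts5, Adamts9 and Adamts12 the lowest injured muscle, at 0.37, 3.56, 1.54 and 3.12 TPM, was below the highest contralateral one, at 1.03, 4.93, 2.37 and 3.31 TPM. The order of the mean levels in control was Adamts1, Adamts10, Adamts2, Adamts5, Adamts15, Adamts9, Adamts12, Adamts14, Adamts4 and Adamts7, and apart from Adamts1 and Adamts10 all neighbours in that order had overlapping values. At 7 DPI in non-repaired injured muscle the order was Adamts2, Adamts10, Adamts15, Adamts12, Adamts1, Adamts14, Adamts7, Adamts4, Adamts5 and Adamts9. All neighbours in that order had overlapping values too, such as Adamts10 and Adamts15 at 23.9 ± 5.67 and 22.8 ± 7.69 TPM (SD, n = 8), so the order is that of the means alone.

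Other genes of the pathway were taken from lists, whose counts stand beside 48.3%, 45.6%, 25% and 21.1% of all tested genes called higher than control at 3, 7, 14 and 28 DPI. With size factors these shares were 24.5%, 21.9%, 15.8% and 11.5%. Of 19 known substrates and binding partners 15 were tested, and 12, 14, 14 and 11 were higher than control on these days, none lower, and with size factors 10, 14, 14 and 11 of 14 were. Col1a1, whose product is a substrate of Adamts2 and Adamts14, had the highest value at 7 DPI, 7.38 ± 0.38 (SE), going from 17.6 ± 4.40 TPM (SD, n = 4) in control to 3265 ± 1329 TPM (n = 8). Reln, a brain matrix protein, had the lowest, 0.71 ± 0.12, and was not called. Among 10 genes of inhibition, activation and clearance, 8, 9, 8 and 7 were higher, and with size factors 7, 7, 7 and 6 were higher and 1 was lower at 3 DPI. Timp1, a general metalloproteinase inhibitor, led at 7 DPI with 6.07 ± 0.35 and 242 ± 144 TPM (SD, n = 8), against 2.16 TPM in control. Timp3, the tissue inhibitor that acts best on ADAMTS proteases, was lowest of that list at 7 DPI with 0.82 ± 0.17 (SE) and became called later, at 1.03 at 14 DPI and 1.24 at 28 DPI.

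Of 7 tested cytokines known to induce ADAMTS genes, 6, 5, 3 and 2 were higher than control over the 4 days, the count at 28 DPI being near the share of all genes. With size factors 4, 2, 2 and 1 were higher, and from 7 DPI on these counts too are near the share of all genes in that fit. Tgfb1 was highest of them at 7 DPI, at 3.66 ± 0.17 (SE), with 83.0 ± 21.8 TPM (SD, n = 3) at 3 DPI, 56.3 ± 14.5 TPM at 7 DPI (n = 8) and 22.0 ± 4.25 TPM at 28 DPI (n = 4), from 3.42 TPM in control. Tnf was lowest of the list at 0.89 ± 0.19 (SE) at 7 DPI, not called, with 0.20 TPM in control and 1.27 TPM at 7 DPI. Of 3 tested ADAMTS-like proteins, which lack the protease domain, none was called by limma at 3, 7 and 14 DPI and 1 at 28 DPI, Adamtsl4 at 1.41 ± 0.21, whose level went from 16.1 ± 8.13 to 39.9 ± 4.94 TPM (SD, n = 4). With size factors none of the 3 was called by limma on any day. Adamtsl3 was lowest of that list at 7 DPI, at 0.52 ± 0.12 (SE). Of the other ADAMTS proteases, Adamts3, Adamts18 and Adamts19 had values in the table, and none had a group mean above 1 TPM. In the MMG and running comparisons no gene of these lists was called.

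The cell types of the muscle moved with the same groups, and in bulk tissue fewer cells of a type and less RNA per cell cannot be told apart. The 8 muscle fiber markers summed to between 182869 and 235931 TPM in control, 38348 and 51279 TPM at 3 DPI, 55729 and 120120 TPM at 7 DPI and 156054 and 181015 TPM at 28 DPI, with 8, 4, 1 and 0 markers lower over the 4 days, beside 4.24%, 2.42%, 0.547% and 0.212% of all genes, and 8, 8, 2 and 3 with size factors, beside 16.9%, 14.2%, 5.9% and 3.17%. None was at 0 in any of these groups, and fast myosin Myh4 had the lowest value at 7 DPI, -2.15 ± 0.27 (SE), Myh1 the highest at -0.67 ± 0.29. The 8 fibroblast markers were higher than control on all 4 days, with size factors too, and their sum went from 59.4 to 200 TPM in control up to 3286 to 9842 TPM at 7 DPI and 1462 to 2252 TPM at 28 DPI. Their 7 DPI values ran from 2.39 ± 0.30 for Pi16 to that of Col1a1, and Col1a1 and Dcn also stand among the substrates. All 7 macrophage markers were higher on each day under both scalings, their sum being 11.7 to 19.3 TPM in control, 1086 to 1393 TPM at 3 DPI and 117 to 207 TPM at 28 DPI, with Cd68 highest at 7 DPI (5.55 ± 0.29) and Cd163 lowest (2.62 ± 0.20). The part of these shifts in the ADAMTS values was not tested.

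The remaining marker lists are to be read against the same shares of all genes called higher under each scaling, which some of their counts are near. Of the 4 tested neutrophil markers, 4, 3, 2 and 0 were higher over the 4 days, under both scalings, with S100a8 (3.09 ± 0.44, SE) and Cxcr2 (0.81 ± 0.20) as the extremes at 7 DPI. Endothelial markers gave 6, 7, 4 and 3 of 8 higher, between Pecam1 (1.97 ± 0.17) and Kdr (0.79 ± 0.14), and their sum was 55.9 to 116 TPM in control and 218 to 356 TPM at 7 DPI, but with size factors 1, 0, 0 and 0 were higher. Smooth muscle and pericyte markers gave 6, 7, 7 and 5 of 8, between Tagln (3.11 ± 0.22) and Myh11 (0.93 ± 0.22), and with size factors 3, 5, 2 and 1 were higher and 1 was lower at 3 DPI. Tendon and cartilage markers gave 2, 4, 3 and 2 of 5, from Tnmd (4.58 ± 0.68) to Sox9 (0.91 ± 0.14), and Acan, the substrate of the aggrecanases, was at 0 in all control muscles. With size factors 0, 3, 3 and 2 of these were higher. Satellite cell markers gave 4, 2, 2 and 3 of 4, from Myf5 (2.56 ± 0.21) to Cdh15 (0.63 ± 0.15), and 1, 2, 2 and 1 with size factors.

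Group means of the members were compared with all tested genes by Spearman's rho over the 31 groups, as a description, since the groups share the injury, the libraries and the days. Adamts2 was most like Antxr1 (rho = 0.995), Clec11a and Ssc5d, Adamts10 most like Natd1 (0.995), Bmp1 and Fkbp9, and Adamts12 most like the matrix metalloproteinase Mmp14 (0.996), Cdon and Col6a2. Adamts15 was most like Gulp1 (0.989), Col3a1 and Fstl1, Adamts14 most like Arhgap24 (0.983), Oaf and Myl9, and Adamts5 most like Fbn1 (0.987), Enpp3 and Rhoj. Adamts7 was most like Adamts15, Spon1 and Cdk14. Adamts4 was nearest to Msc (0.95), Smarca1 and Srpx, and Adamts9 nearest to the mitotic kinesins Kif15 (0.969) and Kif11 and the kinase Mastl. Adamts1 was nearest to Trim27 (0.952), Rsl1d1 and Eif3c. Adamts7 and Adamts15 were most alike within the family (0.986), and Adamts1 and Adamts9 least (0.655).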

How the data were processed

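The authors pseudo-aligned paired-end RNA-Seq reads to the rat transcriptome (build 6.0) with Kallisto and deposited TPM values per gene symbol, which were used as deposited. They tested gene counts with DESeq2, and counts were not used here. The table stops within Tubb4a, and later genes were not analysed here. Libraries were joined to labels by name. Of 138 libraries, 13 with fewer than 7000 symbols above 1 TPM were dropped (901 to 5712 symbols, against 7866 to 10948 in those kept), 8 of them from running rats, and 9 had no certain group. The drop left 2 muscles without a library, both contralateral non-repaired at 7 DPI and from non-running rats. Libraries of one muscle were averaged.

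The 11328 genes whose mean exceeded 1 TPM in any of the 31 groups were tested on log2(TPM + 1) with limma 3.58.1 in R 4.3.3, in one model with 83 residual degrees of freedom and an intensity trend, with Benjamini-Hochberg adjustment per comparison. P-values measure the spread between muscles, and the 4 control muscles come from 2 rats. Injured and contralateral muscles of one rat are pairs: over 34 pairs the deviations from group means correlated at 0.094 on average (-0.068 to 0.358), against -0.0002 between rats. The model had no block, and the rat as a random block (statmod 1.5.0) was an alternative. Other alternatives were a pseudocount of 0.1, no filter, size factors, all libraries kept, each library as its own sample, models of fewer groups, control muscles averaged per rat, a fit that omitted rat 011, and fits that omitted 1 of 86 muscles each. The code was tested on simulated data.

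The members and lists were chosen with earlier results of these data known. Named are the 10 members, the highest and lowest gene of each list against control at 7 DPI, and the 3 genes most like each member. Tables and plots were made in Python 3.11.15 (numpy 2.4.6, pandas 2.3.3, matplotlib 3.10.9). No depth was available for TPM values, so no counting error is given.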

Additional observations from a re-analysis of the deposited data

Results flagged for a closer look

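Of 160 pairs of member and group with 4 to 10 muscles, 10 held a muscle far from the others by Dixon's ratio, and chance gives about 1 in 20, or 8. In the injured MMG group at 14 DPI replicate 2 was the highest for Adamts2 (45.5 TPM, next 29.6), Adamts7 (7.30 TPM) and Adamts10 (26.1 TPM, next 16.9). In the running injured non-repaired group at 7 DPI replicate 3 was the highest for Adamts4 (19.1 TPM, next 8.59) and Adamts12 (30.5 TPM, next 21.1). Single muscles stood apart for Adamts4 in running injured MMG muscle at 3 DPI (22.4 TPM), Adamts5 in injured MMG muscle at 3 DPI (21.4 TPM), Adamts7 in contralateral MMG muscle at 7 DPI (0.36 TPM), Adamts10 in injured MMG muscle at 7 DPI (lowest, 18.6 TPM) and Adamts15 in running injured non-repaired muscle at 14 DPI (lowest, 5.20 TPM).

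The level in injured muscle without repair differed between the 4 days for all 10 members by limma's moderated F test, which uses no reference muscle. The same test passed for 9266 of the 11328 genes. Its adjusted p was 0.0029 for Adamts1, 2.4e-06 for Adamts2, 2.5e-15 for Adamts4, 0.0019 for Adamts5 and 9.2e-15 for Adamts7. For Adamts9 it was 0.00063, for Adamts10 0.00015, for Adamts12 1.4e-09, for Adamts14 4.3e-22 and for Adamts15 5.5e-13.

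The 9 libraries without a certain group entered no comparison, and in them 9 of the 10 members reached values above the highest control muscle. How many of all genes did so was not counted. The highest values were 22.9 TPM for Adamts2 (control up to 1.59), 1.01 for Adamts4 (0.31), 6.58 for Adamts5 (1.35), 2.39 for Adamts7 (0.23), 2.40 for Adamts9 (0.86), 13.2 for Adamts10 (4.08), 7.60 for Adamts12 (0.89), 2.16 for Adamts14 (0.29) and 6.83 TPM for Adamts15 (1.35). Adamts1, at most 10.3 TPM, stayed below the highest control of 14.2 TPM.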

How the results depend on the processing

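None of the 106 member differences that were called changed sign under any alternative. The rat as a random replicate block changed no call: with the block the number of members called against contralateral muscle at 7 DPI was 10 and against control at 28 DPI 8. Of 201 counts of called members under the other settings and 223 with 1 muscle left out, 198 and 216 were within 1.5 times the reported count. The number called in contralateral against control muscle went from 1 to 0 with all libraries kept, to 4 with a pseudocount of 0.1, and ranged from 0 to 2 with 1 muscle left out. With 1 muscle left out the number called ranged from 0 to 1 for running at 3 DPI, from 0 to 2 for 7 against 3 DPI and from 0 to 2 for 28 against 14 DPI, which a pseudocount of 0.1 took to 3. The reasons for these moves were not tested.

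Signs turned in values that were not called. With size factors Adamts1 went to -0.34, -0.59 and -0.63 against control at 3, 7 and 14 DPI, to -0.0088, -0.093 and -0.29 against contralateral muscle at 3, 14 and 28 DPI, and to -0.30 and -0.39 in MMG muscle at 14 and 28 DPI, and Adamts5 went to 0.20 from 7 to 14 DPI. Adamts1 against control at 14 DPI was also -0.013 with control muscles averaged per rat, and ranged from -0.21 (without control replicate 4) to 0.14 with 1 muscle left out, being negative also without injured replicate 3 or 4. At 28 DPI it ranged from -0.31 to 0.039, positive without control replicate 1. Adamts15 in contralateral against control muscle ranged from -0.037, without control replicate 4, to 0.24. Keeping all libraries gave -0.011 for Adamts10 and -0.098 for Adamts9 from 3 to 7 DPI and 0.14 for Adamts5 from 7 to 14 DPI, and Adamts5 from 3 to 7 DPI ranged from -0.29 to 0.026, the latter without injured 3 DPI replicate 2. Low members depend on the pseudocount, since 6 of the 10 had a mean control level under 1 TPM.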

Other observations

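For 8 libraries from 28 DPI running rats the title names the muscle of one leg and the label that of the other, and in them Adamts2 was at 2.03, 2.05, 2.13, 2.18, 13.2, 13.7, 15.3 and 22.9 TPM, with no value between 2.18 and 13.2. Adamts7 fell apart likewise, with 4 values of 0.16 to 0.17 TPM and 4 of 1.10 to 2.39 TPM, and so did Adamts12, with 0.39 to 0.81 TPM and 3.91 to 7.60 TPM. Adamts1, Adamts4, Adamts5 and Adamts9 showed no such gap: the 8 values of Adamts1 lay between 7.20 and 10.3 TPM, those of Adamts4 between 0.12 and 1.01 TPM, those of Adamts5 between 1.09 and 6.58 TPM and those of Adamts9 between 0.66 and 2.40 TPM. For Adamts10, Adamts14 and Adamts15 the fourth and the fifth value in rising order were 3.44 and 7.27, 0.56 and 1.10, and 0.94 and 2.55 TPM. The library of rat 011 whose label gives another day than the rest of that rat held 6.27 TPM of Adamts2, 9.43 TPM of Adamts1 and 0.35 TPM of Adamts7. No group was assigned to these libraries from their values.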
